A study of Mus musculus with 4 samples.

Results

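The genes examined here were the axon guidance ligands and receptors of the mouse retina. They were picked out by gene name, as every protein-coding gene of the semaphorin (classes 3 to 7), plexin, neuropilin, Eph receptor, ephrin, Robo, Slit, Unc5, netrin and Dcc families. The name rule found 69 members among the 21886 protein-coding genes and 48897 genes listed, and 66 of them passed the filter on low counts. Epha1, Ntn5 and Plxnb3 did not pass it. No measured value entered the rule, but this set of genes was chosen with earlier results of these data known.

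Growing axons and dendrites read these proteins as local signals. Ligands are secreted or sit on neighbouring cells, their receptors span the membrane of the growth cone, and binding turns the cytoskeleton towards or away from the source. In the retina the families are known for sending ganglion cell axons out through the optic disc, for sorting them at the optic chiasm and over the tectum, and for confining neurites to the layers of the inner retina. Several of the same proteins also act in blood vessels.

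The question was whether the genes of these families differed in level after miR-124-3p, an abundant neuronal microRNA, was blocked. All retinas came from mice that the labels give as wild type of the strain C57BL/6, named C57BL/6J in the study's methods. At postnatal day 3 the left eye received 0.6 nmol of a miR-124-3p antagomir, a chemically modified antisense oligonucleotide, in 1 µl into the vitreous (anti-miR-124 group), and the right eye received the same amount of a scrambled oligonucleotide (NC group). Retinas were taken at postnatal day 9, 6 days after the injection, and each group mixed retinas of several mice from more than 1 litter. There were 2 RNA-Seq libraries per group. A left-eye and a right-eye library that share a number are called pair A or pair B here, and the numbers could not be tied to the replicate numbers of the labels. All anti-miR-124 retinas were left eyes, so the side of the eye and the oligonucleotide cannot be told apart. Mature miR-124-3p is not measured by libraries of this kind. The p-values below measure only the spread between these libraries, and in whole retina fewer cells of a type and less RNA per cell cannot be told apart.

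The libraries held 16317239 to 18726963 counts assigned to genes. Rhodopsin, the rod photopigment, was at 1156 to 1358 TPM (counts per gene length, scaled to the same total in every library). The NC library of pair A also held lens transcripts, with a summed level of 67290 TPM over 25 lens genes against 178.6 to 241.1 TPM in the other libraries. This lowers every other gene's TPM in that library, so groups were compared on TMM-normalized CPM, counts scaled to library size, and TPM was used to compare levels between genes and to give the summed level of a list in each library. Summed levels in that library are lowered in the same way. A list of 20 microglia genes summed to 770.6 TPM in pair B's anti-miR-124 library and to 248.3 to 305.4 TPM in the others.

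Between 64 and 65 of the 69 members reached 1 TPM in each library, and 68 or 69 had at least 1 count. Together they made up 0.148% of the TPM of the NC library of pair A and 0.171% to 0.172% of the others. The highest level was that of Plxna2, a receptor for class 6 semaphorins, at 137 ± 12.9 TPM (mean ± SD over the 4 libraries). Plxnb2, a receptor for class 4 semaphorins, followed at 113 ± 14.8 TPM. The next 4 members did not differ beyond their SDs, and they were Slit2 at 61.1 ± 8.56 TPM, Plxnb1 at 60.6 ± 5.51 TPM, Sema7a at 59.6 ± 6.04 TPM and Robo2 at 58.3 ± 7.55 TPM. Most families thus held a well expressed member, whereas Robo4, Slit3 and Ntn1 were low. Epha5 led the Eph receptors at 53.7 ± 4.91 TPM, Efnb3 the ephrins at 36.1 ± 2.92 TPM, Unc5c the Unc5 receptors at 26.8 ± 1.76 TPM and Nrp1 the neuropilins at 22.2 ± 2.63 TPM. Dcc was at 26.7 ± 2.53 TPM. Netrins were the lowest family, with Ntn4 at 9.79 ± 1.45 TPM and Ntn1, the best known of them, at 0.466 ± 0.182 TPM. Plxnb3 had 3, 3, 3 and 7 counts in the 4 libraries, Epha1 had 5 to 8, and Ntn5 had 2 and 3 counts in pair A and 0 in both libraries of pair B, where a count of 0 allows up to 3 counts.

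**Figure D1:**
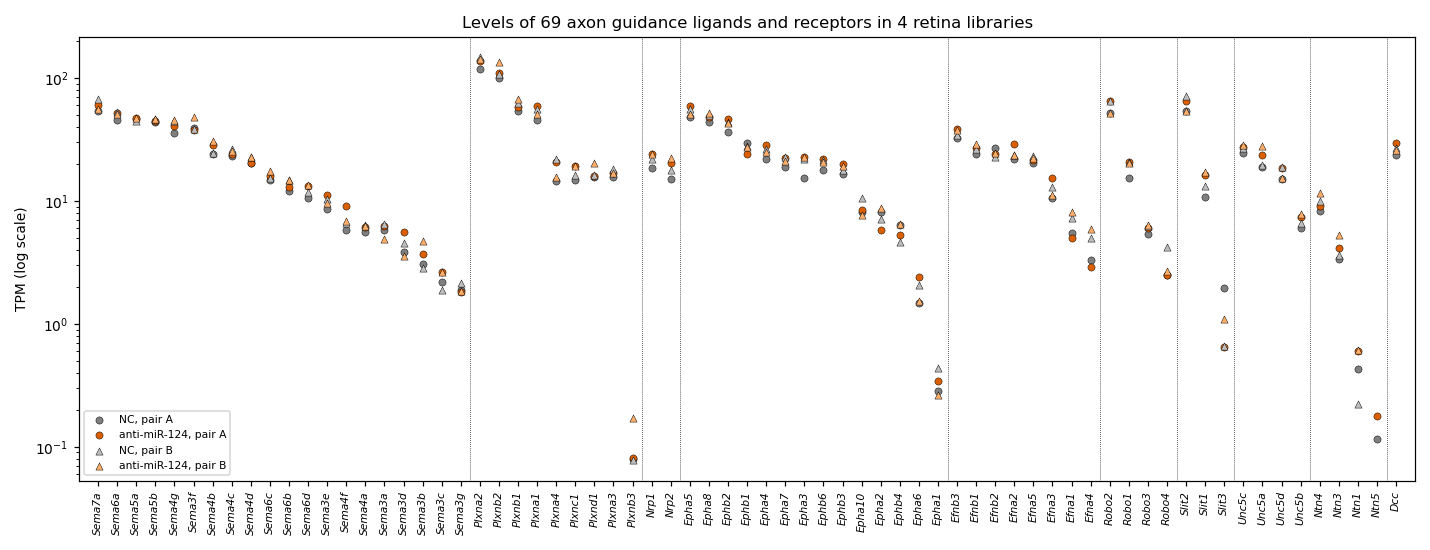
Levels of the 69 members in TPM on a log axis, grouped by family and ordered by mean within it, with 1 point per library (circles, pair A; triangles, pair B; grey, NC; orange, anti-miR-124). Levels run from 137 TPM for Plxna2 to under 1 TPM for Ntn1, Epha1, Plxnb3 and Ntn5, whose values of 0 in pair B are not drawn.

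No member passed the test. With edgeR's quasi-likelihood test and Benjamini-Hochberg adjustment over all genes, 0 of 66 members and 0% of the 17766 genes tested had an adjusted p under 0.05, and the smallest adjusted p of a member was 0.989. At an unadjusted p under 0.05 there were 7 members, or 10.6%, against 3.91% of all genes. DESeq2 gave 3 members at this limit, against 1.11% of the 31982 genes it was run on, and none with an adjusted p under 0.05. All 7 had the higher level in anti-miR-124 retinas (2.23% of all genes did) and 0 were lower (1.68% of all genes). They were the ligands Slit1, Sema4b and Sema6d, the co-receptors Nrp1 and Nrp2, and the receptors Unc5a and Plxnc1. With the pair number as a block the count was 4 (Nrp2, Plxnc1, Slit1 and Unc5a), against 2.12% of all genes under the limit in either direction. Nrp1, Sema4b and Sema6d were not under the limit with DESeq2 or with this block. The count also rested in part on single libraries. Leaving out 1 library at a time moved the log2 fold change of Slit1 over 0.34 to 0.50 and of Unc5a over 0.25 to 0.49. The ranges were 0.25 to 0.37 for Nrp2, 0.14 to 0.26 for Nrp1 and 0.18 to 0.27 for Sema4b. For Plxnc1 and Sema6d they were 0.24 to 0.26 and 0.20 to 0.22. Nrp1, Nrp2, Sema6d, Slit1 and Unc5a overlap a gene on the opposite strand, of which Hk3, beside Unc5a, had the most counts (49 at most in a library).

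Directions were read within each pair from the log2 ratio of CPM, anti-miR-124 over NC. Of the 66 members, 23 (34.8%) had a ratio above 0 in both pairs, against 22.8% of all genes, and 9 (13.6%) had a ratio below 0 in both, against 24% of all genes. The others were split, 22 above 0 only in pair A and 12 only in pair B, against 4523 and 4941 of the 17766 genes. The libraries of the groups did not overlap for 19 members (28.8%) with the higher level in anti-miR-124 retinas, against 16.5% of all genes, and for 7 members (10.6%) that were lower, against 16.8%. The median log2 fold change of the members was 0.07 (quartiles -0.04 and 0.15), and that of all genes was 0.0007 (quartiles -0.10 and 0.10). Most of this shift lay in pair A, where 45 members (68.2%, against 48.2% of all genes) were higher and the median log2 ratio was 0.12. In pair B 35 members (53%, against 50.6%) were higher, and the median was 0.02. The members' median log2 fold change was 0.03 without the NC library of pair A, which held the lens transcripts. It was 0.12 without the NC library of pair B, and 0.08 with only the lens genes left out. Across members, the ratios of pairs A and B had a Pearson correlation of -0.22 (Spearman -0.15, 66 genes), and over all genes it was -0.06. The pairs share no library, and genes are not independent replicates.

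**Figure D2:**
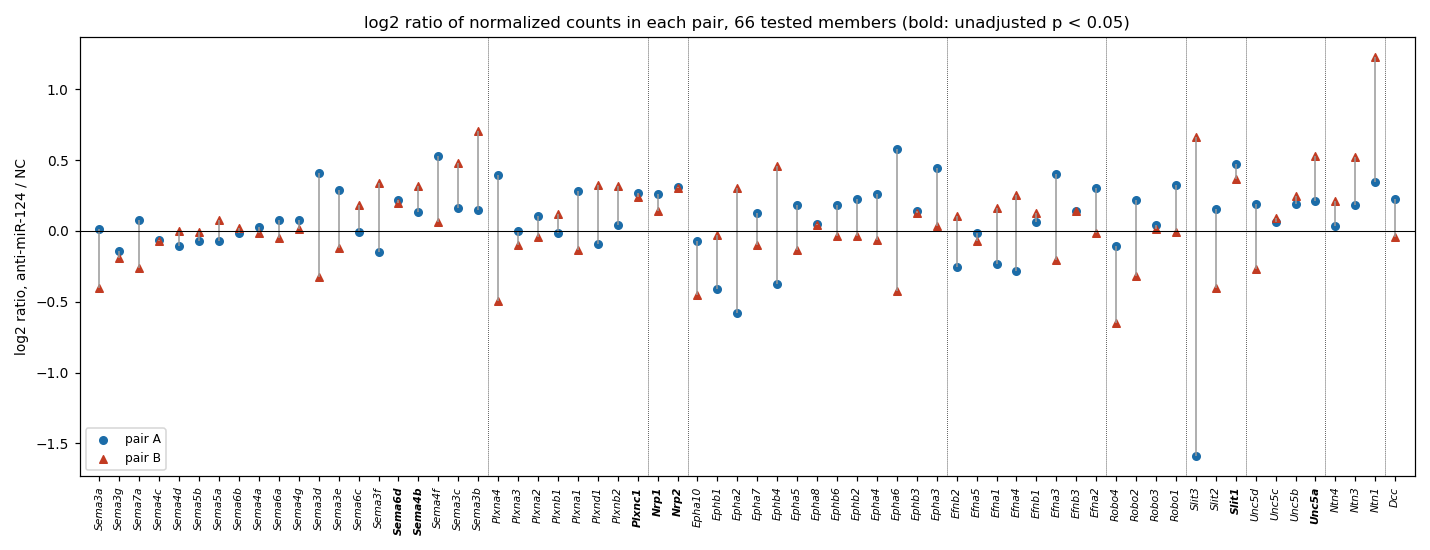
Log2 ratio of CPM (anti-miR-124 over NC) of the 66 tested members in pair A (circles) and pair B (triangles), grouped by family and ordered by fold change within it, with a line joining the 2 values. Members in bold had an unadjusted p under 0.05, and all 7 have both points above 0, while 22 members are above 0 only in pair A and 12 only in pair B.

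Slits are large secreted repellents, and Robo proteins are their receptors. Slit1 (chr19:41597824-41747540, minus strand), which is made by retinal neurons and steers ganglion cell axons inside the retina, had the smallest p of all members. Its levels were 28.1 CPM (NC) and 39.0 CPM (anti-miR-124) within pair A and 31.3 and 40.5 CPM within pair B. Both anti-miR-124 libraries were above both NC libraries, with a fitted log2 fold change of 0.42 (standard error, SE, 0.088, unadjusted p = 0.00257) and log2 ratios of 0.47 (pair A) and 0.37 (pair B). Its unadjusted p stayed under 0.05 when each library in turn was left out and under every other setting run. In the main fit its adjusted p was 0.989 (edgeR). With no filter on low counts, its adjusted p was 0.00591 (edgeR), and 379 genes in all were then under 0.05, against 0 in the main fit.

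Slit2, which with Robo2 shapes the retinal exit and the chiasm, was at 61.1 ± 8.56 TPM against 14.4 ± 2.87 TPM for Slit1 and showed no such gap between the groups. Its levels were 180.5 and 216 CPM (NC, pairs A and B) against 200.5 and 163 CPM (anti-miR-124), and the groups overlapped, with a fitted log2 fold change of -0.13 (SE 0.13, unadjusted p = 0.371) and log2 ratios of 0.15 (pair A) and -0.41 (pair B). Robo2, the main Slit receptor of ganglion cells, showed the same split, at 209 CPM (NC) and 243 CPM (anti-miR-124) within pair A and 239 and 192 CPM within pair B, with log2 ratios of 0.22 (pair A) and -0.32 (pair B). Its log2 fold change was -0.04 (SE 0.13, unadjusted p = 0.749). The levels of Robo1, a further Slit receptor, were 54.1 and 65.9 CPM (NC, pairs A and B) against 67.9 and 65.6 CPM (anti-miR-124). The NC library of pair A was the lowest and the other 3 were alike, with a fitted log2 fold change of 0.15 (SE 0.10, unadjusted p = 0.187). Robo4, found mainly in endothelial cells, was at 53 counts (NC) and 52 counts (anti-miR-124) in pair A and 93 and 61 in pair B. The NC library of pair B was high and the other 3 were alike, with a fitted log2 fold change of -0.43 (SE 0.29, unadjusted p = 0.192). Both pairs gave higher values for 2 and lower values for 6 of 12 endothelial genes, whose summed level was 304.5 to 337.6 TPM in the 4 libraries, and their part in the Robo4 values was not tested. Slit3 and Robo3 were not among the members named by rule. Slit3, with 52 counts in the NC library of pair A and 17, 18 and 31 in the others, had the widest gap between pairs, with log2 ratios of -1.59 (pair A) and 0.66 (pair B). That library also held the lens transcripts, whose part in the Slit3 counts was not tested.

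Neuropilins bind class 3 semaphorins and hand the signal to a plexin, and they also bind vascular endothelial growth factors. Both neuropilins were higher in both pairs. Nrp2 (chr1:62703317-62818692, plus strand), the main partner of Sema3f, was at 40.5 CPM (NC) and 50.3 CPM (anti-miR-124) within pair A and 44.1 and 54.5 CPM within pair B. The groups did not overlap and the log2 ratios were nearly equal, at 0.31 (pair A) and 0.31 (pair B), with a fitted log2 fold change of 0.31 (SE 0.086, unadjusted p = 0.0101). Nrp1 (chr8:128358283-128505476, plus strand), the partner of Sema3a and a marker of growing vessels and axons, was at 40.5 and 43.9 CPM (NC, pairs A and B) against 48.6 and 48.4 CPM (anti-miR-124). The anti-miR-124 libraries were again above both NC libraries, by a smaller margin in pair B, with a fitted log2 fold change of 0.20 (SE 0.080, unadjusted p = 0.0424). The windows below were taken from RefSeq on GRCm38.p6 and hold 250 bases before and 50 after an annotated start on the plus strand, chr8:128358823-128359122 for Nrp1 and chr1:62703067-62703366 for Nrp2. They are shown because the neuropilins were the only receptor family with every member higher in both pairs. Capitals mark the GC box, GGGCGG on either strand, a motif bound by Sp family factors. Nrp1 holds 1 copy and Nrp2 holds 5.
Nrp1: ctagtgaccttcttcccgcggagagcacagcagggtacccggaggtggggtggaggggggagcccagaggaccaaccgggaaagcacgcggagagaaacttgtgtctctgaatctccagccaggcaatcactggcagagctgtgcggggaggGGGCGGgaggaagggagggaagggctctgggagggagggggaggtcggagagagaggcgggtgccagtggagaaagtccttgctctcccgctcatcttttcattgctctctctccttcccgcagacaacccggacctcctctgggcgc
Nrp2: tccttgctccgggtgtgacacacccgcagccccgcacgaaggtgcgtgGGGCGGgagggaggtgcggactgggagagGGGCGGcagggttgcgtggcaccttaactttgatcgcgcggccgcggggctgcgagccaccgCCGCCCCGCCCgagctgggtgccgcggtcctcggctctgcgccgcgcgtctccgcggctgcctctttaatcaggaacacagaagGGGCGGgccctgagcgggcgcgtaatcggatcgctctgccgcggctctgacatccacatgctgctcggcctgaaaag

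The ligands of the neuropilins did not share that pattern. Sema3a, a repellent that collapses growth cones, was at 20.9 CPM (NC) and 21.1 CPM (anti-miR-124) within pair A and 21.7 and 16.3 CPM within pair B. Only the anti-miR-124 sample of pair B was low, with a fitted log2 fold change of -0.19 (SE 0.14, unadjusted p = 0.223). Sema3f, a repellent that signals through Nrp2, was at 63.5 and 57.0 CPM (NC, pairs A and B) against 57.1 and 72.2 CPM (anti-miR-124). Here the anti-miR-124 sample of pair B was the highest, with a fitted log2 fold change of 0.10 (SE 0.12, unadjusted p = 0.429). Sema3g, which is made by vessels, had only 44 to 54 counts per library and a fitted log2 fold change of -0.18 (SE 0.26, unadjusted p = 0.521). Over the 7 class 3 genes, 2 were higher and 1 was lower in both pairs, 4 were split, and the median log2 fold change was 0.08. The 2 higher ones, Sema3b and Sema3c, had between 51 and 119 counts per library, and Sema3b had the highest log2 fold change of the semaphorins, 0.44 (SE 0.24, unadjusted p = 0.108). They are named here after their values were seen.

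**Figure D3:**
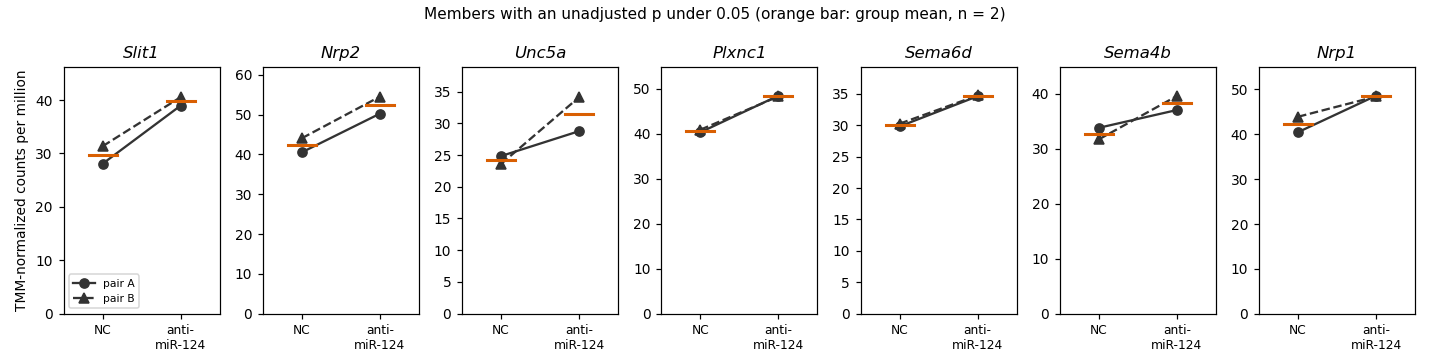
TMM-normalized CPM of the 7 members with an unadjusted p under 0.05, on axes that start at 0 (circles and solid lines, pair A; triangles and dashed lines, pair B; orange bars, mean of the 2 libraries of a group). In each panel both anti-miR-124 libraries lie above both NC libraries.

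The membrane-bound semaphorins of classes 4 to 7 held the other members with a small p. Sema6d (chr2:124089918-124667789, plus strand), a class 6 ligand known to act at the optic chiasm, was at 29.8 CPM (NC) and 34.6 CPM (anti-miR-124) within pair A and 30.2 and 34.7 CPM within pair B. The libraries of a group were nearly equal, with a fitted log2 fold change of 0.21 (SE 0.076, unadjusted p = 0.0307) and log2 ratios of 0.22 (pair A) and 0.20 (pair B). Sema4b (chr7:80186841-80226646, plus strand), a transmembrane semaphorin, was at 33.8 and 31.7 CPM (NC, pairs A and B) against 37.1 and 39.6 CPM (anti-miR-124). Its margin was wider in pair B (0.32) than in pair A (0.13), with a fitted log2 fold change of 0.23 (SE 0.084, unadjusted p = 0.0322). Sema4c, a ligand of Plxnb2, had ratios just below 0 in both pairs (-0.06 and -0.07) and a fitted log2 fold change of -0.07 (SE 0.078, unadjusted p = 0.415).

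Among the semaphorins that are known to keep neurites in their layers of the inner retina, the groups were close. Sema5a, which repels inner retinal neurites through Plxna1 and Plxna3, was at 171 CPM (NC) and 164 CPM (anti-miR-124) within pair A and 151 and 159 CPM within pair B, and its log2 fold change was 0.0006 (SE 0.088, unadjusted p = 0.994). Sema5b, which acts with it, was at 74.4 and 72.0 CPM (NC, pairs A and B) against 70.9 and 71.7 CPM (anti-miR-124), with a log2 fold change of -0.04 (SE 0.066, unadjusted p = 0.585). Sema6a, the ligand of Plxna2 and Plxna4 in the inner plexiform layer, was at 115 CPM (NC) and 121 CPM (anti-miR-124) within pair A and 119.8 and 116 CPM within pair B, with a log2 fold change of 0.01 (SE 0.073, unadjusted p = 0.862). The groups overlapped for Sema5a and Sema6a, and for Sema5b the libraries lay between 70.9 and 74.4 CPM in all. Sema7a, a lipid-anchored ligand and the semaphorin at the highest level, was at 59.5 and 68.2 CPM (NC, pairs A and B) against 62.8 and 57.0 CPM (anti-miR-124), with a log2 fold change of -0.09 (SE 0.094, unadjusted p = 0.361). Its NC library of pair B was the highest of the 4. Over all 20 semaphorins, 6 were higher and 4 lower in both pairs, 10 were split, and the median log2 fold change was 0.03.

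Plexins carry the semaphorin signal across the membrane. Plxnc1 (chr10:94790866-94945275, minus strand), the receptor of Sema7a, was at 40.3 CPM (NC) and 48.4 CPM (anti-miR-124) within pair A and 40.9 and 48.3 CPM within pair B. The libraries of a group were nearly equal and the groups did not overlap, with a fitted log2 fold change of 0.25 (SE 0.074, unadjusted p = 0.0123) and log2 ratios of 0.26 (pair A) and 0.24 (pair B). Its RefSeq window on GRCm38.p6, chr10:94944796-94945095 on the minus strand, is shown because it was the only window of these 7 members with the core of an interferon-stimulated response element (a pair of GAAA runs, 2 bases apart). Capitals mark that match on the printed strand, which starts 118 bases before the annotated start. The 4 GC boxes of the window are left in lower case.
Plxnc1: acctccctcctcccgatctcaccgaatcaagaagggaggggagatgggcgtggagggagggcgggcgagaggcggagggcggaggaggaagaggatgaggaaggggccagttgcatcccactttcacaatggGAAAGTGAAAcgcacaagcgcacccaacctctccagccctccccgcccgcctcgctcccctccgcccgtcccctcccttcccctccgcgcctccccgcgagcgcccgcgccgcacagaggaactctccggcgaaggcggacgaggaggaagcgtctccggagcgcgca

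Plxna2 and Plxna4, the receptors of Sema6a, were at 432 and 492 CPM (NC, pairs A and B) against 464 and 479 CPM (anti-miR-124) for Plxna2 and 61.0 CPM (NC) and 80.2 CPM (anti-miR-124) within pair A and 84.2 and 59.8 CPM within pair B for Plxna4. The log2 fold change of Plxna2 was 0.03 (SE 0.078, unadjusted p = 0.721). That of Plxna4 was -0.05 (SE 0.19, unadjusted p = 0.782), with log2 ratios of 0.40 (pair A) and -0.49 (pair B). So the groups overlapped for both, and the Plxna4 ratios had opposite signs. Of the 8 plexins tested, 2 were higher in both pairs (Plxnb2 and Plxnc1), 1 was lower and 5 were split, and the median log2 fold change was 0.07.

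Netrins are secreted cues that attract axons through Dcc and repel them through Unc5 receptors. Unc5a (chr13:54949411-55006018, plus strand), one of the repulsive receptors, was at 24.8 and 23.6 CPM (NC, pairs A and B) against 28.8 and 34.1 CPM (anti-miR-124). Both anti-miR-124 libraries were above both NC libraries, more so in pair B, with a fitted log2 fold change of 0.38 (SE 0.11, unadjusted p = 0.0110) and log2 ratios of 0.21 (pair A) and 0.53 (pair B). Its p was under 0.05 except when the NC library of pair B was left out. Its RefSeq window on GRCm38.p6, chr13:54949161-54949460 on the plus strand, is shown as that of the only netrin receptor among the 7. Capitals mark the 5 GC boxes, 2 of which share a base.
Unc5a: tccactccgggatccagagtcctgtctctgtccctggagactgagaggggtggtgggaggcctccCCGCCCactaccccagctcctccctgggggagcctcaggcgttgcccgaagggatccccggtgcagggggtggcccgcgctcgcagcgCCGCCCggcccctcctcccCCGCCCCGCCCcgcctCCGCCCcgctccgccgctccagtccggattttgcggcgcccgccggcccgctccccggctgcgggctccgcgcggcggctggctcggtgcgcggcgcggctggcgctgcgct

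The other netrin receptors were closer to 0. Unc5c, the Unc5 receptor at the highest level, was at 75.2 CPM (NC) and 78.7 CPM (anti-miR-124) within pair A and 75.6 and 80.5 CPM within pair B, with a log2 fold change of 0.08 (SE 0.065, unadjusted p = 0.271), and its groups did not overlap. Unc5b, a receptor of neurons and vessels, had a fitted log2 fold change of 0.22 (SE 0.13, unadjusted p = 0.124) and that of Unc5d was -0.04 (SE 0.12, unadjusted p = 0.768). Of the 4 Unc5 receptors 3 were higher in both pairs, and the median log2 fold change was 0.15. Dcc, the attractive receptor that guides ganglion cell axons to the optic disc, was at 82.1 and 85.7 CPM (NC, pairs A and B) against 96.0 and 83.2 CPM (anti-miR-124). The anti-miR-124 sample of pair A was high and the other 3 were alike, with a fitted log2 fold change of 0.09 (SE 0.088, unadjusted p = 0.326). All 3 netrins tested were higher in both pairs, at low counts. Ntn1, the cue of the optic disc, had 13 counts (NC) and 18 counts (anti-miR-124) in pair A and 7 and 20 in pair B. That is a log2 fold change of 0.83 (SE 0.47, unadjusted p = 0.124), which was 0.39 without the NC library of pair B and 1.43 without that of pair A. Ntn4, a netrin of basement membranes, had 106 and 132 counts (NC) against 115 and 160 (anti-miR-124), with a fitted log2 fold change of 0.13 (SE 0.20, unadjusted p = 0.529). Ntn3, a further netrin, had 88 and 98 counts (NC) against 106 and 148 (anti-miR-124), with a log2 fold change of 0.37 (SE 0.21, unadjusted p = 0.125 with edgeR). On the same strand Ntn3 overlaps Tbc1d24, which had up to 3547 counts in a library. The part of Tbc1d24 reads in the Ntn3 counts was not tested.

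Eph receptors and ephrins signal between touching cells, in both directions, and set the map of ganglion cell axons over their targets. None of the 13 Eph receptors or 8 ephrins tested had an unadjusted p under 0.05. Epha5, a receptor of ephrin-A gradients, was at 149 CPM (NC) and 169 CPM (anti-miR-124) within pair A and 156 and 142 CPM within pair B, with a log2 fold change of 0.03 (SE 0.10, unadjusted p = 0.769). Ephb1, which turns ganglion cell axons of the ventral and temporal retina away from the chiasm midline, was at 45.9 and 39.3 CPM (NC, pairs A and B) against 34.4 and 38.5 CPM (anti-miR-124). Both anti-miR-124 libraries were below both NC libraries, by little in pair B, with a fitted log2 fold change of -0.22 (SE 0.11, unadjusted p = 0.0766). Its unadjusted p was under 0.05 with no filter on low counts, with either library of pair B left out and with a crossed block chosen after seeing the data. Epha10, an Eph receptor without kinase activity, had 299 counts (NC) and 302 counts (anti-miR-124) in pair A and 395 and 301 in pair B. Its gap lay mainly in pair B (-0.45 on the log2 scale, -0.07 in pair A), with a fitted log2 fold change of -0.27 (SE 0.12, unadjusted p = 0.0706). Its unadjusted p was under 0.05 with either library of pair A left out and with the crossed block. These were the smallest p-values among the Eph receptors, and both genes were at lower levels in both pairs. Over the family 3 were higher and 2 lower in both pairs, 8 were split, and the median log2 fold change was 0.04.

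Efnb2, the chiasm ligand of Ephb1, was at 97.1 CPM (NC) and 81.2 CPM (anti-miR-124) within pair A and 75.5 and 81.2 CPM within pair B. The NC library of pair A was the highest and the groups overlapped, with a fitted log2 fold change of -0.09 (SE 0.12, unadjusted p = 0.489). Efna5, a graded ligand of the retina and tectum, was at 37.5 and 39.5 CPM (NC, pairs A and B) against 37.2 and 37.7 CPM (anti-miR-124), with a log2 fold change of -0.04 (SE 0.077, unadjusted p = 0.617). Efnb3, a midline ephrin and the highest of the family, was at 48.7 CPM (NC) and 53.7 CPM (anti-miR-124) within pair A and 47.2 and 52.2 CPM within pair B. Its ratios were nearly equal in the pairs, 0.14 (pair A) and 0.14 (pair B), and its log2 fold change was 0.14 (SE 0.073, unadjusted p = 0.0944). Of the 8 ephrins 2 were higher and 1 was lower in both pairs, 5 were split, and the median was 0.08.

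The members outside the naming rule, 35 of those tested, had log2 fold changes from -0.65 (Slit3) to 0.44 (Sema3b) at mean counts of 29.5 to 4264 per library. Their smallest unadjusted p was 0.107 (edgeR), and none under 0.05 was possible, as the rule named every such member. The pairs gave the same sign for 12 higher and 2 lower members, and 21 were split. The rule also took 5 higher and 5 lower members by their ratios, so this balance was partly set by the rule.

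Split members were sorted by a limit of 0.1 on the log2 ratio in each pair. There were 10 members (15.2%, against 11.5% of all genes) above it in pair A and below its negative in pair B. These were Efna3, Epha5, Epha6, Plxna1, Plxna4, Robo2, Sema3d, Sema3e, Slit2 and Unc5d. These members were picked by the same ratios, so their course was set by the limit. Of a list of 12 retinal ganglion cell genes, all 12 were higher in pair A and 1 (Isl2) was higher in pair B, with median log2 ratios of 0.43 and -0.47. Their summed level was 1311 and 1680 TPM in the NC libraries and 1907 and 1245 TPM in the anti-miR-124 libraries of pairs A and B. The 10 bipolar cell genes had medians of 0.21 and -0.33. Neither list's part in the members' values was tested. The opposite course was that of 7 members (10.6%, against 13.5% of all genes), namely Efna1, Efna4, Efnb2, Epha2, Ephb4, Sema3f and Slit3. Above the limit in both pairs were 14 members (21.2%, against 9.03% of all genes), and below its negative in both were Robo4 and Sema3g (3.03%, against 10.1%).

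**Figure D4:**
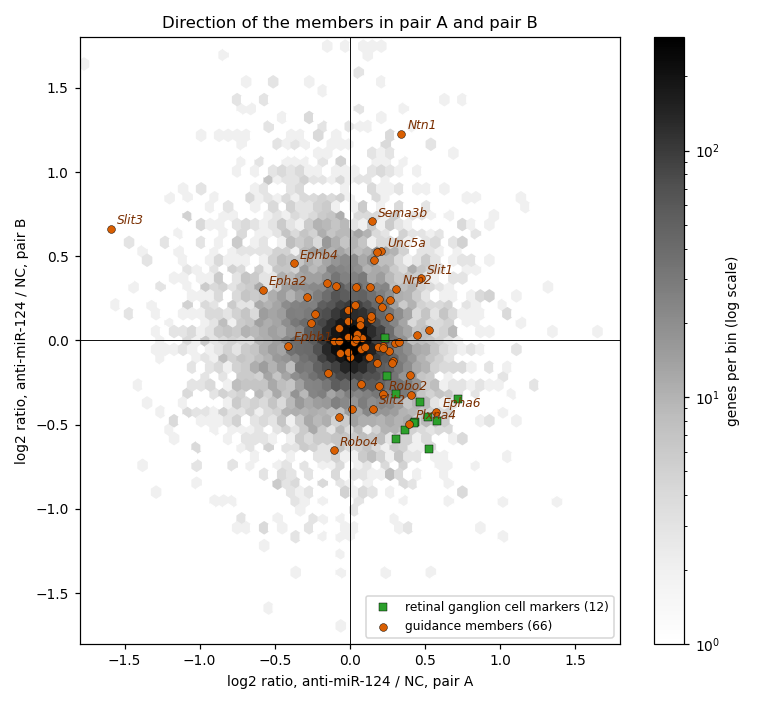
Log2 ratio of CPM (anti-miR-124 over NC) in pair A (x axis) and pair B (y axis) for the 66 members (orange circles) and 12 retinal ganglion cell genes (green squares), over a density of all 17766 genes tested (grey, log scale; genes beyond the axes are not drawn). The ganglion cell genes lie to the right of 0, with 11 of 12 below 0 in pair B, and 23 members lie in the upper right part.

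Microglia genes differed between the pairs in another way, with median log2 ratios of -0.09 in pair A and 1.60 in pair B. Slit1, Nrp1, Nrp2, Plxnc1 and Sema6d had ratios in pair A at least as large as in pair B, and Unc5a and Sema4b had larger ratios in pair B. Cone genes were lower in the anti-miR-124 libraries of both pairs for 9 of 10 genes, with medians of -0.23 and -0.75. Some genes of the cell type lists were higher in both pairs, as the 7 members were. Of 20 microglia genes 8 were higher in both pairs, 5 of them at an unadjusted p under 0.05 (edgeR). Of 10 rod genes 5 were higher and 1 was lower in both pairs, with 1 gene at that limit in each direction. Of 6 horizontal cell genes, 4 were higher and 1 (Sept4) was lower in both pairs, and the list's medians were 0.22 and 0.09. Prox1 was split, with log2 ratios of 0.07 (pair A) and -0.07 (pair B). An unadjusted p under 0.05 was found for 2 of them. These were Lhx1 with log2 ratios of 0.47 (pair A) and 0.41 (pair B) and Onecut2 with 0.23 (pair A) and 0.23 (pair B). Of 6 astrocyte genes 3 were higher in both pairs (medians 0.07 and 0.35), among them Pdgfra with 0.21 (pair A) and 0.22 (pair B) and an unadjusted p of 0.0227 (edgeR). Gfap, Pax2 and Aldh1l1 were lower in pair A and higher in pair B, with log2 ratios of -1.14 (pair A) and 2.51 (pair B) for Gfap. Of 9 pigment epithelium genes tested 3 were higher in both pairs (medians 0.78 and 0.18), with a summed level of 165.1 TPM in pair A's anti-miR-124 library and 79.21 to 122.5 TPM in the others. Medians were 0.09 and -0.06 for amacrine, 0.06 and 0.03 for rod, -0.09 and 0.07 for Müller glia and -0.28 and 0.02 for pericyte genes. The part of these cell types in the members' values was not tested.

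**Figure D5:**
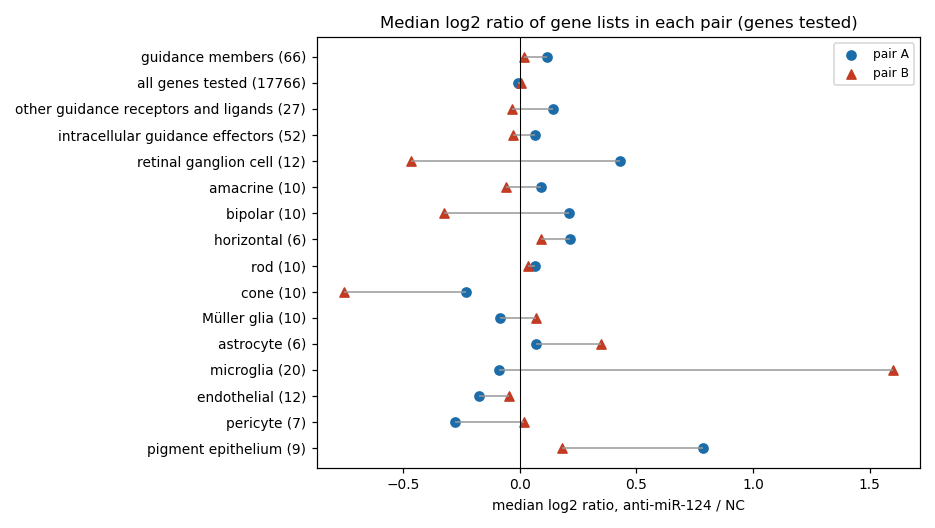
Median log2 ratio of CPM (anti-miR-124 over NC) in pair A (circles) and pair B (triangles) for the members, all genes tested, further guidance genes and cell type lists, with the number of genes tested in parentheses. The members sit at 0.12 and 0.02 and all genes at -0.009 and 0.003, and the ganglion cell, bipolar, horizontal, cone, astrocyte, microglia, pericyte and pigment epithelium lists have a median of 0.21 or more in size in at least 1 pair. The lens list (medians -8.45 and 0.25) is off this scale and not drawn.

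Other genes of the pathway were read from a list of 79 tested genes, made up of 27 further ligands, co-receptors and adhesion receptors and 52 proteins that act inside the growth cone. Of these 2 (2.53%) had an unadjusted p under 0.05, against 3.91% of all genes, and both were higher (0 were lower). Cntn2, an adhesion protein of growing axons, was at 16.8 and 17.3 CPM (NC, pairs A and B) against 21.8 and 21.8 CPM (anti-miR-124). The groups did not overlap, with a fitted log2 fold change of 0.35 (SE 0.095, unadjusted p = 0.00852) and log2 ratios of 0.37 (pair A) and 0.33 (pair B). Dpysl3, which binds tubulin and actin in growth cones, was at 1037 CPM (NC) and 1176 CPM (anti-miR-124) within pair A and 1074 and 1119 CPM within pair B, with a fitted log2 fold change of 0.12 (SE 0.048, unadjusted p = 0.0421). The ratio was above 0 in both pairs for 19 genes (24.1%, against 22.8% of all genes) and below it for 10 (12.7%, against 24%), and the median log2 fold change over the 79 was 0.02. The receptors and ligands of this list had median log2 ratios of 0.14 (pair A) and -0.03 (pair B), and the intracellular proteins of 0.06 and -0.03.

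RefSeq windows of 300 bases around the start were used for 59 members, 75 windows in all. Dcc and Sema6a were left out of this search, and the windows used for comparison were not limited in that way. The GC box was in 53 of them (70.7%, against 35.7% of all 32851 windows), and the median number of CG dinucleotides was 19 against 7. TATAAA was in 2 (2.67%, against 13.6%), those of Efnb2 and Slit2, where it starts 30 and 28 bases before the start. The interferon element core was in 2 (2.67%, against 3.44%), those of Plxnc1 and Sema6b. Each motif was searched on both strands. Of the 7 members with an unadjusted p under 0.05, Slit1 was not matched to a window, and each of the other 6 had a window with a GC box, as did 44 of the 59 members in all. Matches are descriptions of sequence and were not tested against the fold changes.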

How the data were processed

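RNA-Seq libraries were made from total retinal RNA with a directional kit. The deposited table holds read counts per gene without normalization, gene lengths, and 4 columns of RPKM values, 1 per library, which were not used here. The submitters' processing notes name HISAT2 and mm9, but all 69 members matched by gene ID overlapped their GRCm38 positions, so positions were read as GRCm38. The counting tool and its strand setting are not given in the sources used here, and 33 members have a listed gene on the opposite strand.

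Columns were assigned to groups by the eye they name. The libraries of a group differed beyond sampling noise (chi-square per degree of freedom 24.49 for NC and 9.2 for anti-miR-124). TPM values were computed from the deposited counts and lengths. All genes were fitted with edgeR 4.0.16 in R 4.3.3 (TMM, filterByExpr, glmQLFit and glmQLFTest, no covariate, testing both directions, Benjamini-Hochberg adjustment, threshold 0.05), and the code was tested on simulated data. Log2 ratios within pairs were of TMM-normalized CPM with a prior count of 2. Alternatives were other scalings, no filter, DESeq2 1.42.0, a replicate block, no lens genes and each library left out. Windows were searched with Python 3.11.15.

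The members and lists were chosen with earlier results of these data known. Named members were the highest of each family by TPM, those with an unadjusted p under 0.05, the 5 higher and 5 lower with the largest smaller ratio over the 2 pairs (mean of at least 20 counts), and members with textbook roles in retinal wiring. Other members are named after their values were seen.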

Additional observations from a re-analysis of the deposited data

How the results depend on the processing

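With 2 libraries per group, the standard errors of the log2 fold changes ran from 0.065 (Unc5c) to 0.59 (Slit3, at 17 to 52 counts). DESeq2 size factors, upper quartile scaling, total counts and leaving out the lens genes each gave the same 7 members at an unadjusted p under 0.05. With no filter on low counts, 1 member (Slit1) passed the adjusted threshold, beside 379 genes in all. At an unadjusted p under 0.05, 8 members were higher and 1 (Ephb1) was lower, against 4.93% of the 31982 genes then fitted. The number of higher members at that limit was 3 with DESeq2 (Nrp2, Slit1 and Unc5a), which called 33 genes in all at its adjusted threshold. The deviations of same-numbered libraries had a correlation of -0.162. Each mouse received both oligonucleotides, but the sources used here do not say that same-numbered libraries came from the same mice, so the fit without the block was kept. With the replicate block the number of higher members was 4 (Nrp2, Plxnc1, Slit1 and Unc5a), and 376 genes had an unadjusted p under 0.05 instead of 694. A crossed block, chosen after seeing the data, gave 7 higher and 2 lower members at that unadjusted limit, against 7.35% of all genes. It put 160 genes past the adjusted threshold. When 1 library was left out, the lone library of its group was assumed to vary like the other group, and 2 to 10 members were higher and 1 to 3 lower at an unadjusted p under 0.05. The share of all genes under that limit also changed with the library left out. It was largest in the fit that gave 10 higher members, so these counts are not read as a shift of the members. No ratio in both pairs could be had with 1 library left out. Under other scalings 23 to 25 members were higher and 7 to 9 lower in both pairs, and the median log2 fold change of the members was 0.03 to 0.12 over all alternatives. Of 372 alternative log2 fold changes of the 31 named members, 353 kept their direction and 19, in 12 members, did not. Sema5a was at -0.0002 with upper quartile scaling. The other reversals came from leaving out 1 library, which moved the log2 fold change of Dcc over -0.0136 to 0.20, Efnb2 over -0.26 to 0.11, Epha5 over -0.0981 to 0.15, Ntn4 over -0.0407 to 0.29, Plxna2 over -0.0606 to 0.13, Plxna4 over -0.28 to 0.20, Robo2 over -0.22 to 0.12, Sema3f over -0.0713 to 0.26, Sema5a over -0.0893 to 0.0967, Sema6a over -0.0218 to 0.0516, Sema7a over -0.19 to 0.009 and Slit2 over -0.28 to 0.0215. The cause was not tested.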
